A study of Mus musculus with 26 samples.

Results

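Nuclear RNA of sorted astrocytes was compared with nuclear RNA of sorted oligodendrocytes from whole mouse brain, in 8 of the 26 libraries of the study, taken by the cell type and the sort in their titles. Sorted astrocyte nuclei (4 libraries) came from B6.FVB mice carrying Tg(Aldh1L1-EGfp/Rpl10a)JD130Htz, in which Aldh1L1 drives GFP fused to Rpl10a, a protein of the ribosome. Sorted oligodendrocyte nuclei (4 libraries) came from B6.FVB mice carrying Tg(Cnp-EGfp/Rpl10a)JD368Htz, in which Cnp drives the same fusion. Both groups therefore carried a transgene, each from a single insertion line, and the nuclei in a group are those that the named driver marks. The mice were 6 to 12 weeks old, each sample came from 1 mouse, and each group held 2 males (astrocyte libraries 6 and 8, oligodendrocyte libraries 10 and 12) and 2 females (astrocyte 30 and 32, oligodendrocyte 34 and 36). Presort nuclei of the same lines, taken before sorting, gave 4 libraries each, of 147826 to 3274488 counts, and served as a mixture of all brain nuclei.

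Astrocytes clear glutamate and potassium from around synapses, contact blood vessels with endfeet, and store glycogen and export lipids. Oligodendrocytes wrap axons in myelin, a stack of lipid-rich membrane held together by a small set of abundant proteins. The RNA of a nucleus is rich in newly made and partly unspliced transcripts and in long noncoding RNAs that stay in the nucleus, so a nuclear level follows what a gene is making more closely than a whole-cell level does.

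Values below are deposited read counts divided by the library's total and multiplied by 1000000 (CPM), listed for astrocyte libraries 6, 8, 30 and 32 and then for oligodendrocyte libraries 10, 12, 34 and 36. A log2 fold change is astrocyte over oligodendrocyte from edgeR after TMM scaling, so it need not equal the ratio of the CPM values, and a gene passed when its adjusted p was under 0.05. The 8 libraries held 134357 to 3239445 counts. Astrocyte 30 was the shallowest, with 134357 counts and 11136 genes detected, so that 1 count there is worth 7.44 CPM, and the other astrocyte libraries held 2345664 to 3239445 counts. Oligodendrocyte 36 stood apart at an ordinary depth of 1602594 counts, with 7674 genes detected, against 16223 to 16575 in the other oligodendrocyte libraries. Of 7641 genes at 10 CPM or more in each of oligodendrocyte 10, 12 and 34, 1950 (25.5%) had 0 counts in oligodendrocyte 36. For each of those 3 libraries held against the other pair the share at 0 was at most 0.0371%. A further 216 of the 7641 genes stood over 5 times above the highest other oligodendrocyte library. Each result is therefore given from 8 libraries and, where it moves, from the 7 libraries without oligodendrocyte 36.

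The marker lists followed the labelled cell types. The lists hold the drivers Aldh1l1 and Cnp and were chosen with earlier results of these data known. Their separation between the groups, with its p-values, is therefore a description. The 30 astrocyte markers summed to between 35666 and 45457 CPM in astrocyte nuclei, against 1055 to 2924 CPM in oligodendrocyte nuclei and 3851 to 8921 CPM in presort nuclei of both lines. The 30 oligodendrocyte markers summed to between 1517 and 2694 CPM in astrocyte nuclei, against 37884 to 49519 CPM in oligodendrocyte nuclei and 4705 to 8098 CPM in presort nuclei. Neither pair of groups overlapped (two-sided exact permutation test over 8 samples, p = 0.0286 for each list, the smallest that 4 against 4 allows; 0.0571 without oligodendrocyte 36, the smallest that 4 against 3 allows). Pan-neuronal markers were low in both, at 1185 to 2002 CPM in astrocyte nuclei and 1312 to 2796 CPM in oligodendrocyte nuclei, against 9853 to 12723 CPM in sorted neurons. In bulk libraries fewer cells of a type and less RNA per cell cannot be told apart.

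**Figure D1:**
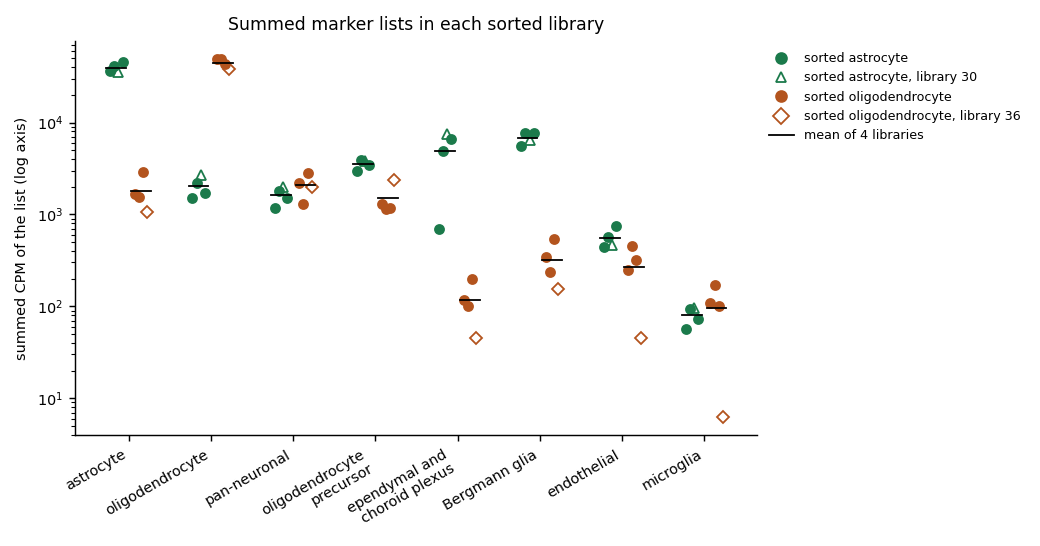
Summed CPM of 8 marker lists (log axis) in each sorted library; points are libraries, lines are means of 4, astrocyte libraries stand left of oligodendrocyte libraries, and open symbols mark astrocyte 30 and oligodendrocyte 36. Astrocyte markers lie at 35666 CPM or above in astrocyte nuclei and at 2924 CPM or below in oligodendrocyte nuclei, and oligodendrocyte markers show the opposite order.

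The driver genes followed the lines. Aldh1l1, a folate enzyme used as an astrocyte marker, had 325, 183, 253 and 169 CPM in astrocyte nuclei, against 3.75, 6.2, 4.84 and 13.7 CPM in oligodendrocyte nuclei (log2 fold change 4.48 ± 0.71 (SE), adjusted p = 0.00121; 5.45 ± 0.42 (SE), adjusted p = 3.66e-08 without oligodendrocyte 36). Cnp, a phosphodiesterase of myelin, had 61.4, 69.9, 89.3 and 58 CPM in astrocyte nuclei, against 2144, 1856, 1482 and 642 CPM in oligodendrocyte nuclei (log2 fold change −4.76 ± 0.42 (SE), adjusted p = 4.00e-05). Neither gene's groups overlapped. The GFP entry, which counts the transgene itself, stood at 847, 436, 327 and 403 CPM in astrocyte nuclei, against 52.9, 37.7, 50.7 and 0 CPM in oligodendrocyte nuclei (log2 fold change 3.70 ± 0.91 (SE), adjusted p = 0.0159). Its groups did not overlap, but its call was lost without astrocyte 6 (adjusted p = 0.0632). Presort nuclei of the oligodendrocyte line held 57.5 to 96.2 CPM of GFP, above every sorted oligodendrocyte library. These presort values rest on 15 to 25 GFP counts per library, so their order against the sorted libraries is uncertain and was not tested. Presort nuclei of the astrocyte line held 77.3 to 139 CPM, below every sorted astrocyte library. Rpl10a, whose sequence is part of the transgene as well, had 229.8, 203, 194 and 208 CPM in astrocyte nuclei, against 38.2, 36.2, 38.7 and 0 CPM in oligodendrocyte nuclei. It did not pass in 8 libraries (adjusted p = 0.052) and was higher in astrocyte nuclei without oligodendrocyte 36 (log2 fold change 2.38 ± 0.30 (SE), adjusted p = 7.57e-06).

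The promoters of the drivers and of a strongly separated gene for each cell type are shown because these genes move in opposite directions. They are the RefSeq windows on GRCm38.p6 from 250 bases before to 50 bases after the start site, in the direction of the gene. Capitals mark matches, on either strand, to a SOX core (ACAAAG), to the motif of Myrf, the myelin gene regulator (CTGGNAC), and to a nuclear factor I element (TTGGCA).
Aldh1l1, chr6:90550543-90550842, plus strand: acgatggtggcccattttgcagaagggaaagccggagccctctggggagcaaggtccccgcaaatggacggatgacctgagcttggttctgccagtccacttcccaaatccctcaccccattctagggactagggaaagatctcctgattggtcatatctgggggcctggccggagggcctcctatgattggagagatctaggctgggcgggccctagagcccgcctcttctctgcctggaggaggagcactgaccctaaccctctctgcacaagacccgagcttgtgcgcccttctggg
Gjb6, chr14:57133562-57133861, minus strand: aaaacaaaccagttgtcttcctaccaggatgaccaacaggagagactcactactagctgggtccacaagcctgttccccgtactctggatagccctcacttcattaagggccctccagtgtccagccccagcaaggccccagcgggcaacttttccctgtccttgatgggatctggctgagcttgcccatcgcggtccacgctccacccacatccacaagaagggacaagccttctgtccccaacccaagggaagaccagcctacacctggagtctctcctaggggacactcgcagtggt
Cnp, chr11:100574689-100574988, plus strand: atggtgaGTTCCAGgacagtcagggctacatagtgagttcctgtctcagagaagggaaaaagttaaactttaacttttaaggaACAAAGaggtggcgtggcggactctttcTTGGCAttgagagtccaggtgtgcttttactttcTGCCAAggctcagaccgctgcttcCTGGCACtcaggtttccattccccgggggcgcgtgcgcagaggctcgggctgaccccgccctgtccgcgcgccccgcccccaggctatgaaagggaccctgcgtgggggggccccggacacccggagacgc
Mag, chr7:30914814-30915113, minus strand: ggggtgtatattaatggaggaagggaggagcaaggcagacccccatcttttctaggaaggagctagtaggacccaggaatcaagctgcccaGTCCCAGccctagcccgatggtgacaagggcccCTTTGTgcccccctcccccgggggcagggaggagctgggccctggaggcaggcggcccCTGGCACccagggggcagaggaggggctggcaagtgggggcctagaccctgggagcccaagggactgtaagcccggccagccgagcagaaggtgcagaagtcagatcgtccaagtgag
The Cnp window holds 5 matches, among them a SOX core 167 bases before the start site and Myrf matches 243 and 81 bases before it. The Mag window holds a SOX core 126 bases before the start site and Myrf matches 159 and 68 bases before it, and the Aldh1l1 and Gjb6 windows hold none of these letters. These 4 windows do not stand for their groups: windows of Rfx4, Hes5 and Bmpr1b, genes higher in astrocyte nuclei, hold the SOX letters, and windows of Rfx4, Fgfr3 and Slc7a10, also higher, hold the Myrf letters. For the genes that passed in both the 8 and the 7 libraries the shares are given as a description, with no test. A SOX core stood in 16.6% of 867 promoters of genes higher in astrocyte nuclei, in 16.2% of 748 promoters of genes lower there, and in 13.8% of 11907 promoters of all tested genes. The Myrf letters stood in 21.5%, 21.0% and 18.1% of the same promoter sets, and the nuclear factor I letters in 14.8%, 12.97% and 11.2%. The E-box CAGCTG stood in 18.7%, 21.5% and 15.3%, and TATAAA in 9.46%, 7.22% and 6.84%. The median observed over expected CpG ratio was 0.571 in promoters of genes higher in astrocyte nuclei, 0.652 in those of genes lower there and 0.75 over all tested genes. A RefSeq promoter was matched for 637 of 863 genes higher in astrocyte nuclei, 509 of 679 lower and 9105 of 11971 tested.

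Of 11971 genes tested in 8 libraries, 863 (7.21%) were higher and 697 (5.82%) lower in astrocyte nuclei, 13% in all. Without oligodendrocyte 36, 2034 (16.1%) of 12663 were higher and 1556 (12.3%) lower, 28.4% in all. The counts given for gene lists are to be read beside these shares. Of the 1560 genes called in 8 libraries, 1542 were called in the same direction in 7 (863 higher, 7.21%, and 679 lower, 5.67%), 18 were not called and 0 were called in the opposite direction. The groups' CPM values did not overlap for 2011 of the 11971 genes (16.8%) in the direction of astrocytes. In the direction of oligodendrocytes they did not overlap for 786 (6.57%). A gene at 0 counts in oligodendrocyte 36 cannot count in that direction. This held for 1950 of the 7641 genes at 10 CPM or more in oligodendrocyte 10, 12 and 34. The shares therefore do not compare the cell types on equal terms. The median log2 fold change over all tested genes was 0.03 in 8 libraries and −0.04 in 7. In presort nuclei the astrocyte line differed from the oligodendrocyte line at 0 of 5258 tested genes with edgeR (157 at an unadjusted p under 0.05) and at 0 with DESeq2. The presort libraries of the oligodendrocyte line held 219714 to 313720 counts, and fewer genes could be tested than in sorted nuclei. Differences between the lines could therefore be missed.

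**Figure D2:**
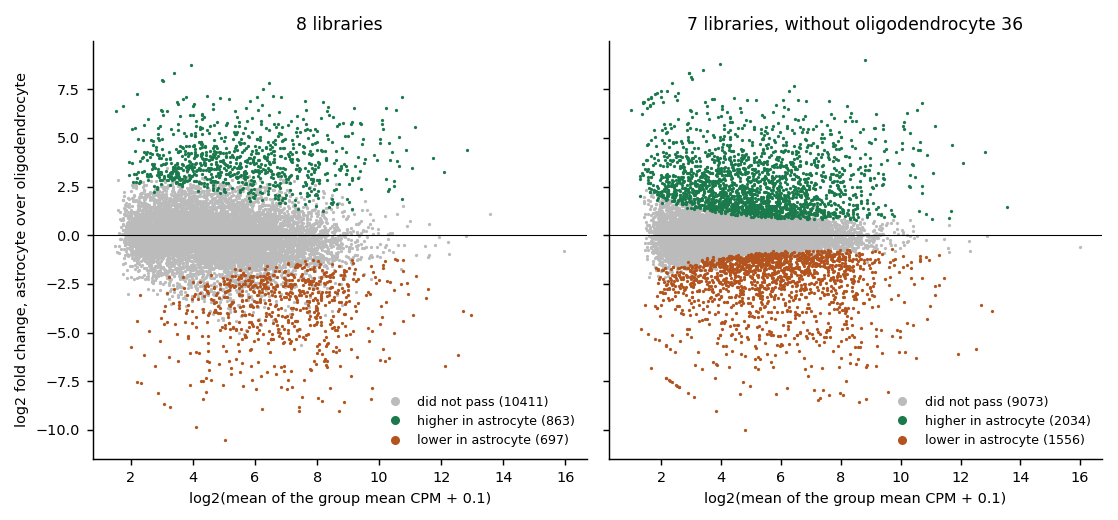
Log2 fold change, astrocyte over oligodendrocyte, against mean abundance (log2 of the mean of both groups' mean CPM + 0.1) for each tested gene, with all 8 libraries on the left and without oligodendrocyte 36 on the right; colours mark genes past an adjusted p of 0.05. In 8 libraries 863 genes lie above and 697 below, and in 7 libraries 2034 and 1556.

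The largest differences in favour of astrocytes were in genes with almost no counts in oligodendrocyte nuclei. Tmprss7, a membrane serine protease, had 30.7, 17.2, 59.5 and 14.8 CPM in astrocyte nuclei, against 0 counts in all 4 oligodendrocyte libraries, which makes it at least 94.9-fold higher against a floor of 3 counts over the group. Ttpa, the transfer protein for vitamin E, had 21.7, 21.5, 22.3 and 17 CPM in astrocyte nuclei, against 0 counts in the oligodendrocyte libraries, at least 64.1-fold higher by the same floor. Trp63, a transcription factor of the p53 family, had 20.5, 10.2, 14.9 and 17.3 CPM in astrocyte nuclei, against 0 counts, at least 48.8-fold higher. All 3 genes had counts in every astrocyte library. The lowest bounds with 1 library left out were 64.9-fold for Tmprss7 (without astrocyte 30), 43.9-fold for Ttpa and 33.4-fold for Trp63 (both without oligodendrocyte 10). Cyp4f15, a fatty acid hydroxylase, had 108, 190.1, 156 and 155 CPM in astrocyte nuclei, against 0.682, 1.43, 0.373 and 0 CPM in oligodendrocyte nuclei (log2 fold change 7.52 ± 0.77 (SE), adjusted p = 8.63e-05). Gdpd2, a glycerophosphodiester phosphodiesterase, had 121, 68.7, 201 and 135 CPM in astrocyte nuclei, against 1.7, 0.953, 0 and 0 CPM in oligodendrocyte nuclei (log2 fold change 7.12 ± 0.93 (SE), adjusted p = 3.76e-04). All astrocyte libraries stood clear of all oligodendrocyte libraries for both. Nat8, Nat8f3 and Nat8f6, which belong to 1 cluster of near-identical acetyltransferase genes on chromosome 6, were all higher, with log2 fold changes of 7.14, 7.10 and 7.14. How the counting split reads among these copies is not given, so the values of single copies are uncertain. Nat8 had 2 counts over the oligodendrocyte group, and the ratio of its pooled counts was 214 (95% exact interval 58.8 to 1772, counting error only).

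At the other end, genes nearly silent in astrocyte nuclei led the list. Itgad, an integrin alpha chain, had 0 counts in the astrocyte libraries, against 10.9, 8.58, 15.6 and 100.5 CPM in oligodendrocyte nuclei, at least 93.6-fold lower, but at least 32.3-fold lower without oligodendrocyte 36, the highest library. Sp7, a zinc finger factor best known from bone, had 0 counts in the astrocyte libraries, against 18.4, 21.5, 11.2 and 6.24 CPM in oligodendrocyte nuclei, at least 39.5-fold lower (at least 24.1-fold without astrocyte 32). Fbxw15, an F-box protein, had 0 counts in the astrocyte libraries, against 4.43, 4.29, 17.1 and 40.6 CPM in oligodendrocyte nuclei, at least 45.8-fold lower (at least 23.8-fold without oligodendrocyte 36). These genes were present in every oligodendrocyte library. Galnt5, an enzyme that starts O-linked glycosylation, had 0.853, 0.39, 0 and 0 CPM in astrocyte nuclei, against 129, 139, 72.3 and 261 CPM in oligodendrocyte nuclei, and its 3 astrocyte counts give a ratio of pooled counts of 380 in the other direction (95% exact interval 130 to 1846). Mboat1, a lysophospholipid acyltransferase, had 1.71, 0.781, 0 and 3.09 CPM in astrocyte nuclei, against 91.7, 95.8, 72.6 and 789 CPM in oligodendrocyte nuclei (log2 fold change −7.87 ± 1.28 (SE), adjusted p = 0.00135; −5.54 ± 0.47 (SE), adjusted p = 9.53e-08 without oligodendrocyte 36). Tex52 had 1 count over the astrocyte group, against 55.6, 66.3, 24.2 and 21.8 CPM in oligodendrocyte nuclei. Speer4a and Speer4c, from a family of near-identical copies on chromosome 5, were lower with log2 fold changes of −8.36 and −8.39 (−6.89 without oligodendrocyte 36 for Speer4c), and the split of reads between them is uncertain.

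Of the 30 astrocyte markers, 29 of 30 tested were higher in astrocyte nuclei and 0 lower, with a median log2 fold change of 4.97 beside 0.03 over all tested genes. Hepacam, an adhesion protein of astrocyte junctions, was the exception, with 521, 634, 625 and 949 CPM in astrocyte nuclei and 259.8, 302, 343 and 260.2 CPM in oligodendrocyte nuclei. Its groups did not overlap, it did not pass in 8 libraries (adjusted p = 0.208), and it was higher without oligodendrocyte 36 (log2 fold change 1.09 ± 0.30 (SE), adjusted p = 0.0104). Slc7a10, a transporter of small neutral amino acids including D-serine, had 397, 351, 365 and 438 CPM in astrocyte nuclei, against 0.682, 3.81, 4.84 and 1.25 CPM in oligodendrocyte nuclei (log2 fold change 6.89 ± 0.67 (SE), adjusted p = 7.39e-05). Aqp4, the water channel of endfeet, had 722, 1249, 1139 and 1299 CPM in astrocyte nuclei, against 26.9, 25.3, 48.1 and 2.5 CPM in oligodendrocyte nuclei (log2 fold change 5.22 ± 0.65 (SE), adjusted p = 2.77e-04). Gfap, the intermediate filament of astrocytes, had 173, 137, 179 and 211 CPM in astrocyte nuclei, against 20.8, 17.6, 28.7 and 1.25 CPM in oligodendrocyte nuclei (log2 fold change 3.16 ± 0.66 (SE), adjusted p = 0.00626).

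All 27 tested oligodendrocyte markers of 30 were lower in astrocyte nuclei, with a median log2 fold change of −5.85, and all 29 tested in 7 libraries were. Of the myelin structural proteins, 15 of 19 tested were lower and 0 higher (median −5.34). Mag, the myelin-associated glycoprotein on the membrane facing the axon, had 9.38, 9.37, 14.9 and 9.26 CPM in astrocyte nuclei, against 1013, 952, 812 and 593 CPM in oligodendrocyte nuclei (log2 fold change −6.71 ± 0.46 (SE), adjusted p = 2.90e-05). Mbp, which compacts the inner faces of the myelin membrane, had 871, 1337, 1637 and 863 CPM in astrocyte nuclei, against 17877, 20661, 8842 and 12288 CPM in oligodendrocyte nuclei (log2 fold change −4.08 ± 0.43 (SE), adjusted p = 1.04e-04). Each of these stood far above the astrocyte libraries in all 4 oligodendrocyte libraries. Opalin (−7.77), Mog (−6.91), Mal (−6.39), Mobp (−6.29) and Tspan2 (−5.86) were lower by the log2 fold changes given. Members that did not pass in 8 libraries were Omg (0.11), Cd9 (0.14), Cd81 (1.08; higher in 7 libraries, 0.99, adjusted p = 0.036) and Cmtm5 (−0.62), genes that neurons or astrocytes use too.

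Of 18 paranodal and axon contact genes, 6 were lower and 2 higher in astrocyte nuclei (7 and 5 in 7 libraries). Cntn2, an adhesion protein of the juxtaparanode, had 20.5, 18, 22.3 and 21.3 CPM in astrocyte nuclei, against 1230.2, 1407, 1243 and 979 CPM in oligodendrocyte nuclei (log2 fold change −6.24 ± 0.44 (SE), adjusted p = 2.90e-05). Nfasc, whose glial form anchors the myelin loops at the paranode, had 827, 529, 633 and 742 CPM in astrocyte nuclei, against 3379, 5238, 2900.4 and 1073 CPM in oligodendrocyte nuclei (log2 fold change −2.45 ± 0.43 (SE), adjusted p = 0.00214). Hapln2 (−6.99), a link protein of nodes, Epb41l3 (−5.18, or −3.96 without oligodendrocyte 36), a membrane cytoskeleton protein, and Ank3 (−3.03), an ankyrin, were lower too. Bcan, a proteoglycan of the perineuronal and perinodal matrix, went the other way with 1097, 602, 692 and 925 CPM in astrocyte nuclei, against 15, 18.1, 20.9 and 1.25 CPM in oligodendrocyte nuclei (log2 fold change 5.72 ± 0.66 (SE), adjusted p = 1.74e-04), as did Cadm2 (log2 fold change 1.70 ± 0.36 (SE), adjusted p = 0.00694), an adhesion protein that neurons also express. Of the cytoskeleton genes of oligodendrocytes, 15 of 20 tested were lower and 0 higher (median −3.56). Plekhh1 had 14.1, 19.1, 14.9 and 22.5 CPM in astrocyte nuclei, against 785, 1011, 584 and 691 CPM in oligodendrocyte nuclei (log2 fold change −5.76 ± 0.50 (SE), adjusted p = 3.62e-05). Dock10 (−5.87, or −5.25 without oligodendrocyte 36), an exchange factor for small GTPases, Map7 (−5.70), a microtubule protein, Stmn4 (−4.93), a stathmin, and Tppp (−4.13), a tubulin polymerizer, were lower in astrocyte nuclei as well.

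**Figure D3:**
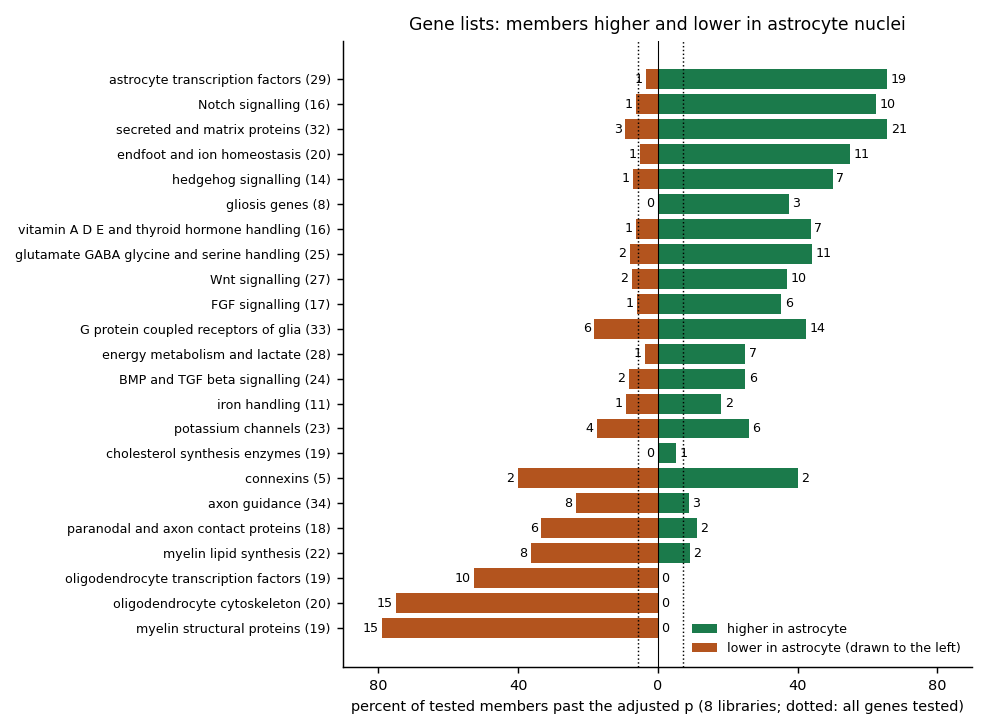
Percent of tested members of each gene list that passed in 8 libraries as higher in astrocyte nuclei (right) or lower (left), with the number of members at the bar end, the number tested in parentheses and dotted lines at 7.21% and 5.82%, the shares of all tested genes. The lists of myelin structural proteins, oligodendrocyte cytoskeleton and oligodendrocyte transcription factors hold 0 members higher in astrocyte nuclei, myelin lipid synthesis holds 2, and astrocyte factors hold 19 higher and 1 lower.

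Members of a family were compared in pairs. Of 13 pairs taken as an astrocyte and an oligodendrocyte member of a family, the astrocyte member was higher in all 13, the oligodendrocyte member was lower in 10 in 8 libraries, and both held in 12 without oligodendrocyte 36. The pairs were chosen with earlier results of these data known, so their count is a description. Among connexins, the subunits of gap junctions, Gjb6 had 599, 1190.3, 737 and 908 CPM in astrocyte nuclei, against 17, 36.2, 83.1 and 1.25 CPM in oligodendrocyte nuclei (log2 fold change 4.48 ± 0.81 (SE), adjusted p = 0.00272). Gjb1 had 2.56, 10.2, 0 and 1.54 CPM in astrocyte nuclei, against 214, 143, 148 and 10.6 CPM in oligodendrocyte nuclei (log2 fold change −5.03 ± 0.94 (SE), adjusted p = 0.00315). The lowest oligodendrocyte value of Gjb1, that of library 36, was just above the highest astrocyte value. Gja1 was higher with a log2 fold change of 4.92. Of the claudins, Cldn10 was higher (5.23) and Cldn11, the tight junction protein of myelin, lower (−5.69). Of the fibroblast growth factor receptors, Fgfr3 had 2601, 2508, 2002 and 2238 CPM in astrocyte nuclei, against 21.8, 23.4, 40.2 and 2.5 CPM in oligodendrocyte nuclei (log2 fold change 6.54 ± 0.65 (SE), adjusted p = 7.39e-05). Fgfr2 had 804, 1054, 901 and 1084 CPM in astrocyte nuclei, against 2054, 2224, 2402 and 3292 CPM in oligodendrocyte nuclei (log2 fold change −1.86 ± 0.43 (SE), adjusted p = 0.0123), and its call was lost without astrocyte 6 (adjusted p = 0.0514). Fgfr2 was thus well detected in both cell types, unlike Fgfr3.

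Receptors for the lipid sphingosine 1-phosphate divided too. S1pr1 had 715, 1627, 1191 and 1832 CPM in astrocyte nuclei, against 18.8, 15.3, 39.9 and 9.98 CPM in oligodendrocyte nuclei (log2 fold change 5.73 ± 0.55 (SE), adjusted p = 7.33e-05), and S1pr5 had 1.71, 1.56, 7.44 and 3.7 CPM in astrocyte nuclei, against 123, 110.1, 144 and 389 CPM in oligodendrocyte nuclei (log2 fold change −6.72 ± 0.89 (SE), adjusted p = 4.09e-04; −5.65 without oligodendrocyte 36). The orphan receptor Gpr37l1 was higher (6.43) and its relative Gpr37 lower (−2.60). The same order held for Ndrg2 (2.53; 3.61 without oligodendrocyte 36) and Ndrg1 (−4.35), for the chloride channel relatives Ttyh1 (2.78) and Ttyh2 (−1.89), and for the fatty acid elongases Elovl2 (6.40) and Elovl7 (−4.18). It held also for the phospholipases Pla2g7 (5.59) and Pla2g16 (−2.70). In 3 pairs the oligodendrocyte member did not meet the call in 8 libraries. Fabp5, a fatty acid binding protein, had 13.2, 19.5, 14.9 and 30.3 CPM in astrocyte nuclei and 51.1, 31.9, 48.1 and 0.624 CPM in oligodendrocyte nuclei (adjusted p = 0.647; 0.0282 without oligodendrocyte 36), while its relative Fabp7 was higher (4.47). Slc1a1, the glutamate transporter known from neurons, had 5.12, 18.7, 29.8 and 5.56 CPM in astrocyte nuclei and 20.1, 22.4, 32.4 and 1.25 CPM in oligodendrocyte nuclei and passed in neither fit (adjusted p = 0.673; 0.0746 without oligodendrocyte 36). Kcnj2, at 0 counts in oligodendrocyte 36 and tested only without it, was lower in 7 libraries (−4.66), and its partner Kcnj16 was higher (4.92).

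**Figure D4:**
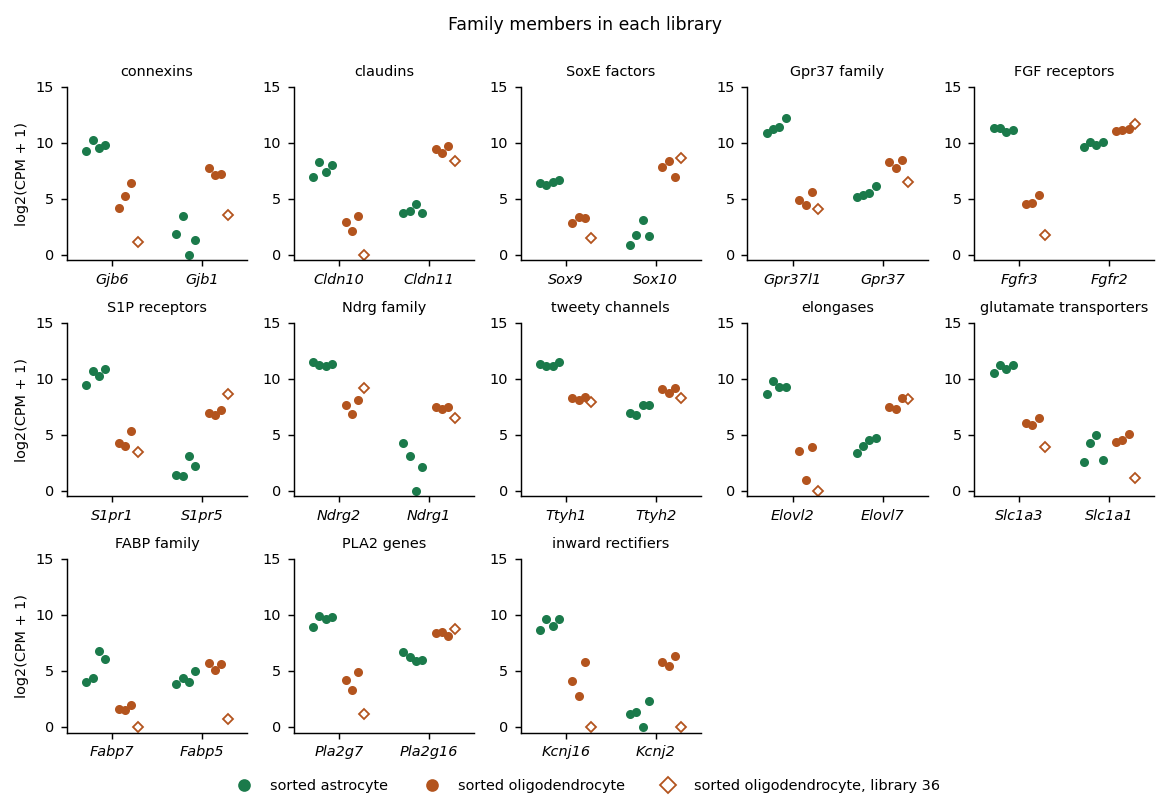
Log2(CPM + 1) of both members of 13 family pairs in each library, astrocyte libraries left of oligodendrocyte libraries for each gene, with the open diamond for oligodendrocyte 36. Fgfr3 stands at 2002 CPM or above in astrocyte nuclei and at 40.2 CPM or below in oligodendrocyte nuclei, Fgfr2 is high in both, and the diamond lies at or near the axis for Kcnj2, Fabp5 and Slc1a1.

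Most transcription factors that passed lay on the side of their list. Of 29 tested astrocyte factors 19 were higher and 1 lower (median 3.64), and of 19 tested oligodendrocyte factors 10 were lower and 0 higher (median −2.81). Without oligodendrocyte 36 the counts were 28 higher and 1 lower of 32, and 16 lower and 1 higher of 20. Sox9, an early glial factor kept in astrocytes, had 83.1, 72.2, 89.3 and 103 CPM in astrocyte nuclei, against 6.14, 9.06, 8.57 and 1.87 CPM in oligodendrocyte nuclei (log2 fold change 3.5 ± 0.58 (SE), adjusted p = 0.00158). Sox10, its relative that drives myelin genes, had 0.853, 2.34, 7.44 and 2.16 CPM in astrocyte nuclei, against 222, 322, 119 and 386 CPM in oligodendrocyte nuclei (log2 fold change −7.42 ± 0.82 (SE), adjusted p = 1.27e-04). Myrf, which turns on the late myelin genes together with Sox10, had 5.54, 7.03, 22.3 and 5.87 CPM in astrocyte nuclei, against 539.8, 852, 473 and 653 CPM in oligodendrocyte nuclei (log2 fold change −6.75 ± 0.61 (SE), adjusted p = 4.47e-05). The groups did not overlap for any of these.

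Rfx4, a winged helix factor, had 282, 198, 216 and 173 CPM in astrocyte nuclei, against 1.02, 3.34, 4.47 and 0 CPM in oligodendrocyte nuclei (log2 fold change 6.33 ± 0.79 (SE), adjusted p = 2.74e-04). Hes5, a repressor downstream of Notch, had 41.4, 89.4, 74.4 and 117 CPM in astrocyte nuclei, against 2.05, 0, 0.745 and 0 CPM in oligodendrocyte nuclei (log2 fold change 6.37 ± 0.94 (SE), adjusted p = 7.74e-04), and Dbx2, a homeobox factor, was higher too (5.53). Lower in astrocyte nuclei were St18 (−6.02), Zfp488 (−5.99), Zfp536 (−4.89), Creb5 (−4.78), Prox1 (−3.60) and Olig1 (−3.30). Zeb2, a repressor needed for myelination, had 517, 415, 514 and 378 CPM in astrocyte nuclei, against 2443, 2506, 2129 and 2431 CPM in oligodendrocyte nuclei (log2 fold change −2.81 ± 0.39 (SE), adjusted p = 5.35e-04), so it was well detected in both. Olig2, a lineage factor, had 51.6, 19.5, 52.1 and 43.8 CPM in astrocyte nuclei and 126, 128, 100.2 and 0 CPM in oligodendrocyte nuclei; with 0 counts in oligodendrocyte 36 it did not pass in 8 libraries (adjusted p = 0.52) and was lower in 7 (−1.65, adjusted p = 0.00158). Of the nuclear factor I genes Nfia did not pass in either fit (0.22; 0.50 without oligodendrocyte 36). Nfib did not pass in 8 libraries (0.24) and was higher without oligodendrocyte 36 (0.77 ± 0.28 (SE), adjusted p = 0.0457). The groups of neither gene overlapped. Nfix, which stands in the astrocyte list, was lower in astrocyte nuclei, with 48.6, 40.2, 37.2 and 63.3 CPM, against 154, 246, 119 and 286 CPM in oligodendrocyte nuclei (log2 fold change −2.55 ± 0.57 (SE), adjusted p = 0.00923; −1.90 without oligodendrocyte 36). Sox2, a stem cell and glial factor, did not pass in either fit. Its log2 fold change was −1.25 (adjusted p = 0.311) in 8 libraries and −0.20 (adjusted p = 0.766) without oligodendrocyte 36.

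**Figure D5:**
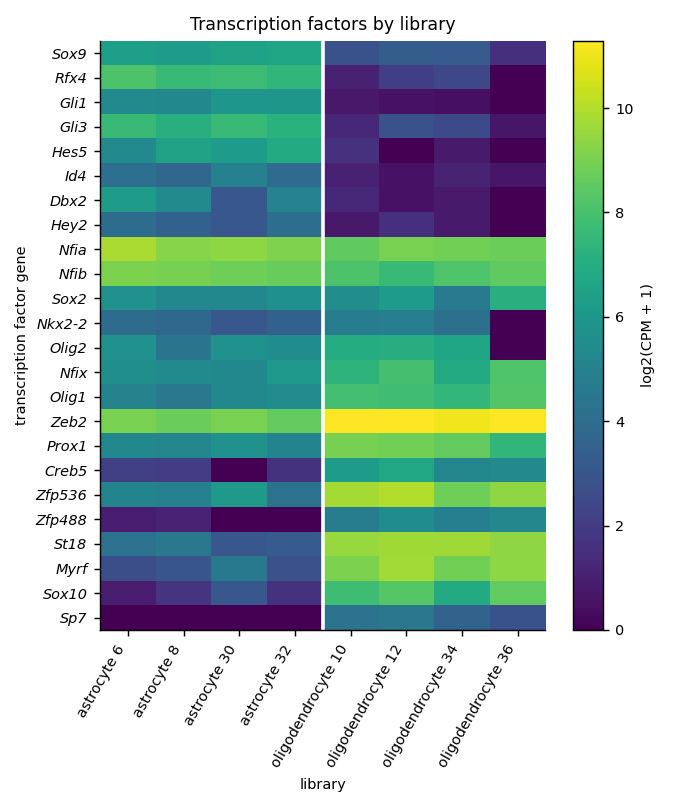
Log2(CPM + 1) of 24 transcription factor genes (rows) in the 4 astrocyte libraries (left of the white line) and the 4 oligodendrocyte libraries (right). Sox9 to Hey2 are brighter on the left than on the right, and Prox1 to Sp7 brighter on the right. Hey2 (at most 16.1 CPM) and Sp7 (at most 21.5 CPM) are dim on both sides. Olig2 and Nkx2-2 are at 0 counts in oligodendrocyte 36.

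Of 25 tested transporters and enzymes that handle glutamate, GABA, glycine and serine, 11 were higher in astrocyte nuclei and 2 lower (13 and 2 of 25 in 7 libraries). Slc1a2, the main glutamate transporter of forebrain astrocytes, had 13881, 14285, 12884 and 14630.0 CPM in astrocyte nuclei, against 570.1, 330.4, 1159.6 and 198 CPM in oligodendrocyte nuclei (log2 fold change 4.40 ± 0.49 (SE), adjusted p = 1.35e-04). Slc1a3, the other astrocytic glutamate transporter, had 1505, 2424, 1853 and 2397 CPM in astrocyte nuclei, against 65.8, 58.2, 92.4 and 13.7 CPM in oligodendrocyte nuclei (log2 fold change 4.94 ± 0.51 (SE), adjusted p = 9.04e-05). Slc6a11, a transporter of the inhibitory transmitter GABA, had 2123, 1659, 1816 and 2979 CPM in astrocyte nuclei, against 49.8, 38.1, 52.5 and 3.74 CPM in oligodendrocyte nuclei (log2 fold change 5.72 ± 0.65 (SE), adjusted p = 1.57e-04). The groups of these 3 uptake genes did not overlap. Slc1a4 (5.72), a transporter of small neutral amino acids, Slc38a3 (5.16), which exports glutamine, and Gldc (6.19), which breaks down glycine, were higher as well. Glul, the glutamine synthetase often used as an astrocyte marker, did not pass and its groups overlapped, with 706, 980.3, 461 and 681 CPM in astrocyte nuclei and 539, 529, 514 and 1372 CPM in oligodendrocyte nuclei (log2 fold change −0.64 ± 0.57 (SE), adjusted p = 0.602; 0.34 ± 0.30 (SE), adjusted p = 0.466 without oligodendrocyte 36). Slc38a2, a sodium-coupled amino acid transporter, was lower in astrocyte nuclei (−3.06, adjusted p = 0.00219). Psat1, an enzyme of serine synthesis, was lower as well (−1.51, adjusted p = 0.0474), but its call was lost without any 1 of the other 7 libraries apart from oligodendrocyte 36 (adjusted p 0.0551 to 0.149).

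Of the endfoot and ion homeostasis genes, 11 of 20 tested were higher and 1 lower (16 and 1 in 7 libraries). Kcnj10, the inward rectifier that buffers potassium, did not pass and its groups overlapped, with 706, 949, 908 and 1504 CPM in astrocyte nuclei and 552, 558, 783 and 471 CPM in oligodendrocyte nuclei (log2 fold change 0.44 ± 0.39 (SE), adjusted p = 0.606; 0.60 ± 0.32 (SE), adjusted p = 0.181 without oligodendrocyte 36). Its usual partner Kcnj16 had 397, 796, 528 and 814 CPM in astrocyte nuclei, against 16.4, 5.72, 53.3 and 0 CPM in oligodendrocyte nuclei (log2 fold change 4.92 ± 0.99 (SE), adjusted p = 0.00491). The groups of Kcnj16 did not overlap. Aqp9 had 2 counts in oligodendrocyte nuclei and a ratio of pooled counts of 128 (95% exact interval 35.1 to 1066). Slc12a2, the sodium, potassium and chloride cotransporter, was the member lower in astrocyte nuclei, with 24.7, 52.7, 81.9 and 28.4 CPM, against 344, 316, 599.8 and 249 CPM in oligodendrocyte nuclei (log2 fold change −3.45 ± 0.49 (SE), adjusted p = 6.33e-04). Among 23 tested potassium channels, 6 were higher and 4 lower (8 and 7 of 25 in 7 libraries). The two-pore channels split, Kcnk1 being higher (4.69) and Kcnk13 lower (−5.88). The voltage-gated channel Kcna1, known from axons, had 40.5, 64.8, 37.2 and 34.6 CPM in astrocyte nuclei, against 957, 934, 1033 and 448 CPM in oligodendrocyte nuclei (log2 fold change −4.52 ± 0.44 (SE), adjusted p = 7.33e-05), and Kcna6 was lower too (−3.99). The calcium-activated channels Kcnn2 (4.79) and Kcnn3 (4.58) were higher.

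Lipid genes did not move as 1 block. Of 22 tested genes of myelin lipid synthesis, 8 were lower and 2 higher in astrocyte nuclei (11 and 2 of 23 in 7 libraries). Ugt8a, which makes the galactolipids of myelin, had 3.84, 8.98, 7.44 and 6.48 CPM in astrocyte nuclei, against 443, 281, 791 and 366 CPM in oligodendrocyte nuclei (log2 fold change −6.47 ± 0.58 (SE), adjusted p = 4.13e-05). Fa2h, which hydroxylates their fatty acids, had 9.38, 5.47, 29.8 and 8.03 CPM in astrocyte nuclei, against 899, 955, 856 and 1630.5 CPM in oligodendrocyte nuclei (log2 fold change −7.25 ± 0.71 (SE), adjusted p = 7.39e-05). These pathway steps separated the groups, and so did Aspa (−4.44), which frees acetate from N-acetylaspartate, and Cers2 (−2.69), a ceramide synthase. The 2 members higher in astrocyte nuclei were desaturases of polyunsaturated fatty acids. A count of 2 in 22 is near the 7.21% of all genes, and 2 in 23 is below the 16.1% in 7 libraries. Fads2 had 174, 209, 246 and 300.1 CPM in astrocyte nuclei, against 9.21, 8.1, 8.94 and 0.624 CPM in oligodendrocyte nuclei (log2 fold change 4.87 ± 0.64 (SE), adjusted p = 3.99e-04). Fads1 was higher with a log2 fold change of 2.66 ± 0.79 (SE), adjusted p = 0.0439, a call that was lost without each of astrocyte 6, 8, 30 and 32 and oligodendrocyte 10 and 12 (adjusted p 0.0709 to 0.122) and held in 7 libraries (2.32, adjusted p = 1.00e-04). Scd2, a desaturase of saturated fatty acids, had 1546, 2449, 1995 and 3109 CPM in astrocyte nuclei and 2887, 2517, 6389 and 3647 CPM in oligodendrocyte nuclei and did not pass (adjusted p = 0.116; 0.0761 without oligodendrocyte 36). Of 19 cholesterol synthesis enzymes, 1 passed in 8 libraries, Msmo1, which was higher (2.09 ± 0.57 (SE), adjusted p = 0.0276) and lost its call without astrocyte 8 or 32 or oligodendrocyte 10 or 12 (adjusted p 0.06 to 0.118). A share of 1 in 19 is near the 7.21% of all genes. In 7 libraries 6 were higher and 1, Ebp (−1.70), lower.

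Of 11 tested iron handling genes 2 were higher and 1 lower (3 and 2 in 7 libraries). Of all tested genes 7.21% were higher and 5.82% lower (16.1% and 12.3% in 7 libraries), so the lower count is near its share. Trf, the iron carrier transferrin, had 156, 203, 164 and 259 CPM in astrocyte nuclei, against 2175, 1470.2, 2342 and 1718 CPM in oligodendrocyte nuclei (log2 fold change −3.66 ± 0.43 (SE), adjusted p = 1.74e-04). Steap3, a ferrireductase, had 104, 99.6, 89.3 and 178 CPM in astrocyte nuclei, against 5.46, 15.7, 7.45 and 2.5 CPM in oligodendrocyte nuclei (log2 fold change 3.68 ± 0.64 (SE), adjusted p = 0.0021), and Heph, a ferroxidase, was higher too (4.64). The carrier and the reductase were thus on opposite sides. Of 28 tested energy genes 7 were higher and 1 lower, and 15 of 29 were higher in 7 libraries. The higher count fell to 4 without each of astrocyte 8, 30 and 32 and oligodendrocyte 10. Ppp1r3c (4.42) and Ppp1r3g, which target a phosphatase to glycogen, were higher, Ppp1r3g with 3 counts in oligodendrocyte nuclei and a ratio of pooled counts of 62.6 (95% exact interval 21.1 to 307). Gys1, which makes glycogen, was higher as well (2.87). The monocarboxylate transporters did not follow: Slc16a1, known for lactate export from oligodendrocytes, did not pass in either fit (−0.36, adjusted p = 0.907), and Slc16a7 was lower in astrocyte nuclei (−3.45, adjusted p = 0.0153), a call lost without astrocyte 6, 8 or 32 (adjusted p 0.0564 to 0.0811).

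Vitamin and thyroid hormone genes held 7 higher and 1 lower of 16 tested, and 10 and 2 of 17 in 7 libraries (median in 8 libraries 2.33, unchanged with Ttpa at its bound). Dio2, which activates thyroid hormone, had 297, 501, 327 and 503 CPM in astrocyte nuclei, against 10.9, 14.3, 18.6 and 0.624 CPM in oligodendrocyte nuclei (log2 fold change 5.0 ± 0.70 (SE), adjusted p = 5.50e-04). The hormone carrier Slco1c1 (5.68) was higher with it. Thra, a thyroid hormone receptor, was lower (−2.28 ± 0.66 (SE), adjusted p = 0.0389; −1.12 without oligodendrocyte 36), and its call was lost without each of the 4 astrocyte libraries (adjusted p 0.0803 to 0.13). Ttr, the thyroxine carrier known from the choroid plexus, had 421, 4571, 6788 and 6006 CPM in astrocyte nuclei, against 73, 48.6, 129 and 44.3 CPM in oligodendrocyte nuclei (log2 fold change 5.57 ± 0.76 (SE), adjusted p = 4.70e-04). Astrocyte 6 was far below the other astrocyte libraries and still above all oligodendrocyte libraries. Ttr belongs to a list of 15 ependymal and choroid plexus markers, of which 8 of 9 tested were higher and 0 lower (8 and 1 in 7 libraries). The list summed to between 687 and 7421 CPM in astrocyte nuclei, against 44.9 to 201 CPM in oligodendrocyte nuclei and 433 to 1065 CPM in presort nuclei. Otx2 had 95.1, 91.7, 104 and 179 CPM in astrocyte nuclei, against 2.39, 0, 3.35 and 0 CPM in oligodendrocyte nuclei. The higher members were genes of the choroid plexus. Of the genes of ciliated ependymal cells in the list, Ccdc153 and Tmem212 had 0 counts in the astrocyte libraries and Foxj1 did not pass in 8 libraries (−1.20) and was lower without oligodendrocyte 36 (−1.59 ± 0.42 (SE), adjusted p = 0.0079). The part of choroid plexus nuclei in these results was not tested.

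Several signalling pathways held more members higher than lower in astrocyte nuclei. Of 16 tested Notch genes 10 were higher and 1 lower. Notch1, a receptor, had 454, 361, 313 and 540.2 CPM in astrocyte nuclei, against 17, 36.2, 19.4 and 0.624 CPM in oligodendrocyte nuclei (log2 fold change 4.34 ± 0.76 (SE), adjusted p = 0.00213). Notch2 (2.78), Notch3 (4.56) and the targets Hey2 (3.64) and Nrarp (4.5) were higher with it. The ligands differed in direction. Jag1 was higher, with 30.7, 27.7, 0 and 25.3 CPM in astrocyte nuclei, against 3.75, 4.29, 2.24 and 0.624 CPM in oligodendrocyte nuclei (log2 fold change 2.83 ± 0.82 (SE), adjusted p = 0.0379), and its groups overlapped through astrocyte 30; its call was lost without any 1 of the other libraries apart from oligodendrocyte 36 (adjusted p 0.0762 to 0.127). Dll1 was lower, with 0.426, 0, 0 and 0.926 CPM in astrocyte nuclei, against 6.82, 4.77, 8.57 and 39.3 CPM in oligodendrocyte nuclei (log2 fold change −5.46 ± 1.29 (SE), adjusted p = 0.0129; −3.73 ± 0.78 (SE), adjusted p = 0.00121 without oligodendrocyte 36), and its call was lost without astrocyte 6 (adjusted p = 0.0651) or astrocyte 8 (0.0581). Of 14 tested hedgehog genes 7 were higher and 1 lower (10 and 2 in 7 libraries). Gli1, a target and effector of the pathway, had 41.4, 37.1, 59.5 and 61.7 CPM in astrocyte nuclei, against 0.682, 0.477, 0.373 and 0 CPM in oligodendrocyte nuclei (log2 fold change 6.47 ± 0.80 (SE), adjusted p = 2.58e-04), and Gli2 (4.94) and Gli3 (5.41) were higher too. Hhip, which binds and holds the ligand, was lower, with 4.69, 4.29, 7.44 and 9.57 CPM in astrocyte nuclei, against 60.01, 53.9, 67.4 and 22.5 CPM in oligodendrocyte nuclei (log2 fold change −3.22 ± 0.61 (SE), adjusted p = 0.00365). The receptor gene Ptch1 did not pass in 8 libraries, with 419, 267, 349.8 and 425 CPM in astrocyte nuclei and 74, 87.2, 65.9 and 306 CPM in oligodendrocyte nuclei, and was higher without oligodendrocyte 36 (log2 fold change 2.18 ± 0.32 (SE), adjusted p = 3.38e-05).

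Of 17 tested fibroblast growth factor genes 6 were higher and 1, Fgfr2, lower. Dusp6, a phosphatase that the pathway induces, had 46, 69.1, 67 and 39.8 CPM in astrocyte nuclei, against 5.11, 0.953, 3.35 and 0 CPM in oligodendrocyte nuclei (log2 fold change 4.22 ± 0.82 (SE), adjusted p = 0.00406), and Fgfr1 (3.09), Spry4 (3.94) and Etv4 (4.01) were higher as well. Of 24 tested genes of the bone morphogenetic protein (BMP) and transforming growth factor beta pathways 6 were higher and 2 lower, and without oligodendrocyte 36 the counts were 12 and 4 of 26. Bmpr1b, a BMP receptor, had 352, 511, 290.3 and 449 CPM in astrocyte nuclei, against 9.55, 8.1, 13.8 and 0 CPM in oligodendrocyte nuclei (log2 fold change 5.48 ± 0.80 (SE), adjusted p = 6.89e-04), and the ligand Gdf10 was higher (4.90). Smad7, an inhibitor of both pathways, was lower, with 14.9, 2.73, 0 and 13 CPM in astrocyte nuclei and 154, 157, 101 and 8.74 CPM in oligodendrocyte nuclei (log2 fold change −3.65 ± 0.89 (SE), adjusted p = 0.0156). Its groups overlapped, through oligodendrocyte 36, and its call was lost without astrocyte 8 (adjusted p = 0.0598). Tgfb3, a ligand, was lower (−2.52 ± 0.69 (SE), adjusted p = 0.0284; −1.60 without oligodendrocyte 36), a call lost without each of the 4 astrocyte libraries (adjusted p 0.0796 to 0.101).

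Wnt genes held 10 higher and 2 lower of 27 tested. Wnt7a, a ligand, had 63.9, 70.3, 89.3 and 179 CPM in astrocyte nuclei, against 2.73, 1.43, 2.24 and 0.624 CPM in oligodendrocyte nuclei (log2 fold change 5.52 ± 0.70 (SE), adjusted p = 3.22e-04). The ligand Wnt7b (5.02), the receptors Fzd2 (5.31) and Lgr6 (5.82) and the decoy Sfrp5 (5.61) were higher too. Lower were Nkd1 (−3.48 ± 0.73 (SE), adjusted p = 0.00633) and Rnf43 (−4.45 ± 1.02 (SE), adjusted p = 0.011; −3.23 without oligodendrocyte 36), both inhibitors of the pathway. A count of 2 lower in 27 is near the 5.82% of all genes that were lower. Znrf3, a relative of Rnf43, was higher (2.52). Tcf7l2, a factor of the pathway known from maturing oligodendrocytes, did not pass in either fit (1.01; 1.14 without oligodendrocyte 36).

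Of 33 tested G protein coupled receptors of glia 14 were higher and 6 lower. Hrh1, a histamine receptor, had 369.6, 882, 387 and 689.9 CPM in astrocyte nuclei, against 1.36, 9.53, 6.33 and 0 CPM in oligodendrocyte nuclei (log2 fold change 6.85 ± 0.90 (SE), adjusted p = 3.99e-04). Ntsr2, a neurotensin receptor, had 1025, 1109, 968 and 1484 CPM in astrocyte nuclei, against 17.4, 13.3, 11.5 and 0.624 CPM in oligodendrocyte nuclei (log2 fold change 6.53 ± 0.70 (SE), adjusted p = 1.07e-04). The endothelin receptor Ednrb (5.79), the adenosine receptor Adora2b (5.64) and the noradrenaline receptors Adra1a (4.11) and Adra2a (4.46) were higher as well. On the other side, Lpar1, a receptor for lysophosphatidic acid, had 23.4, 21.1, 29.8 and 25.3 CPM in astrocyte nuclei, against 392, 296, 413 and 78 CPM in oligodendrocyte nuclei (log2 fold change −3.80 ± 0.51 (SE), adjusted p = 4.31e-04), and Gpr62 (−4.83), Gpr17 (−3.97) and the glutamate receptor Grm7 (−3.81) were lower. The groups of Grm7 overlapped through oligodendrocyte 36, at 4.37 CPM, against 8.33 to 19.2 CPM in astrocyte nuclei. The other oligodendrocyte libraries held 234 to 292 CPM of Grm7. Grm3, a glutamate receptor known from astrocytes, did not pass, with 484, 734, 506 and 761 CPM in astrocyte nuclei and 536, 369.9, 563 and 314 CPM in oligodendrocyte nuclei.

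Of 34 tested axon guidance genes 3 were higher and 8 lower in astrocyte nuclei (12 and 12 of 35 in 7 libraries). The lower count fell to 5 without each of the 4 astrocyte libraries. A count of 3 in 34 is near the 7.21% of all genes. Unc5b, a netrin receptor, had 3.41, 3.9, 7.44 and 13 CPM in astrocyte nuclei, against 403, 396, 451 and 734 CPM in oligodendrocyte nuclei (log2 fold change −6.62 ± 0.73 (SE), adjusted p = 1.29e-04; −5.94 without oligodendrocyte 36). Efnb3, an ephrin that blocks axon growth, had 7.67, 6.25, 14.9 and 13.6 CPM in astrocyte nuclei, against 448, 587, 374 and 585 CPM in oligodendrocyte nuclei (log2 fold change −6.07 ± 0.59 (SE), adjusted p = 7.39e-05). Plxnb3, a semaphorin receptor, was lower as well (−4.89), while the semaphorins Sema4a (4.49) and Sema4b (4.94) were higher and Sema6a lower (−3.01). Slit3, a repellent ligand, was called lower through 1 library: it had 2.13, 4.29, 0 and 4.32 CPM in astrocyte nuclei and 6.48, 4.29, 6.33 and 266 CPM in oligodendrocyte nuclei, and without oligodendrocyte 36 it did not pass (log2 fold change −0.77 ± 0.57 (SE), adjusted p = 0.376).

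Secreted and matrix proteins held 21 higher and 3 lower of 32 tested (median 3.55). Agt, angiotensinogen, had 396, 867, 662 and 942 CPM in astrocyte nuclei, against 14, 8.1, 12.3 and 1.25 CPM in oligodendrocyte nuclei (log2 fold change 6.09 ± 0.64 (SE), adjusted p = 9.89e-05). Mfge8, a bridge for the uptake of dying cells, had 1176, 2627, 1570.4 and 3359.8 CPM in astrocyte nuclei, against 37.5, 24.3, 49.9 and 41.2 CPM in oligodendrocyte nuclei (log2 fold change 5.44 ± 0.57 (SE), adjusted p = 1.00e-04). Apoe (3.25) and Clu (5.04), lipid carriers, Gpc5 (6.16), a glypican, Tnc (5.96), a matrix glycoprotein, and Vegfa (3.53), a growth factor for vessels, were higher too. Adamts4, a protease that cuts brevican and its relatives, had 7.25, 9.37, 0 and 7.1 CPM in astrocyte nuclei, against 742, 711, 710.0 and 303 CPM in oligodendrocyte nuclei (log2 fold change −6.66 ± 0.58 (SE), adjusted p = 3.62e-05), so the protease and its substrate gene Bcan lay on opposite sides. Il33, a cytokine kept in the nucleus, was lower, with 32.4, 55.4, 14.9 and 33.6 CPM in astrocyte nuclei, against 125, 150.2, 351 and 1277 CPM in oligodendrocyte nuclei (log2 fold change −4.46 ± 0.95 (SE), adjusted p = 0.00709; −2.53 ± 0.40 (SE), adjusted p = 8.13e-05 without oligodendrocyte 36). Enpp2, which makes lysophosphatidic acid, was lower by less (−1.28 ± 0.39 (SE), adjusted p = 0.0479). Its groups overlapped through astrocyte 30, at 2077 CPM, against 1764 to 3186 CPM in oligodendrocyte nuclei.

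Nuclear long noncoding RNAs held 4 lower and 0 higher of 12 tested, a count that fell to 1 without astrocyte 6 or 8 and to 0 without astrocyte 32, and stood at 6 lower and 1 higher without oligodendrocyte 36. Neat1, the scaffold of paraspeckles, had 1021, 1524, 1362 and 924 CPM in astrocyte nuclei, against 2542, 3184, 2437 and 5750.1 CPM in oligodendrocyte nuclei (log2 fold change −2.10 ± 0.51 (SE), adjusted p = 0.0148; −1.30 ± 0.28 (SE), adjusted p = 0.00171 without oligodendrocyte 36). Its groups did not overlap, and its call was lost without each of astrocyte 6, 30 and 32 (adjusted p 0.0538 to 0.0611). Pvt1 (−2.73 ± 0.67 (SE), adjusted p = 0.0164; −2.12 without oligodendrocyte 36) lost its call without astrocyte 6, 8 or 32 (adjusted p 0.0574 to 0.0716). Meg3, a maternally expressed RNA, was lower (−1.83, adjusted p = 0.0231). Its groups overlapped, with 447 CPM in astrocyte 30 and 435 CPM in oligodendrocyte 10. Like every lower call of this list, that of Meg3 was lost without astrocyte 32. Malat1 had 70138, 49617, 51445 and 45471 CPM in astrocyte nuclei and 90314, 79934, 58794 and 66390.5 CPM in oligodendrocyte nuclei and did not pass (adjusted p = 0.168; 0.151 without oligodendrocyte 36).

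Of 8 tested gliosis genes 3 were higher and 0 lower in 8 libraries (5 and 0 in 7): Gfap, Cd44 (3.77) and Osmr (3.48). Oligodendrocyte precursor markers split, with 3 higher and 3 lower of 13 tested, and summed to between 2981 and 3957 CPM in astrocyte nuclei, against 1160.3 to 2376 CPM in oligodendrocyte nuclei. Most of the sum in astrocyte nuclei was Ptprz1: without it the markers summed to between 825 and 1228 CPM in astrocyte nuclei and to between 1081 and 2290.0 CPM in oligodendrocyte nuclei, and the groups overlapped. Ptprz1 (4.75), Sox6 (4.08) and Vcan (3.77) were higher in astrocyte nuclei, while Enpp6 (−5.22), Bcas1 (−5.08; −3.75 without oligodendrocyte 36) and Gpr17 (−3.97), genes of newly forming oligodendrocytes, were lower. Pdgfra and Cspg4, which define the precursors, did not pass (1.05 and 1.03). Bergmann glia markers, from the astrocytes of the cerebellum, held 9 higher and 0 lower of 10 tested and summed to between 5594 and 7723 CPM in astrocyte nuclei, against 154 to 535 CPM in oligodendrocyte nuclei. The list holds Slc1a3, which astrocytes outside the cerebellum use too, and Ptprz1, which is also a precursor marker, and without both it summed to between 2077 and 2620.2 CPM in astrocyte nuclei, against 54.9 to 337 CPM in oligodendrocyte nuclei. Of the mural and fibroblast markers 1 of 8 tested, Pdgfrb, was higher (3.82 ± 0.67 (SE), adjusted p = 0.00213), and the list summed to between 379.6 and 506 CPM in astrocyte nuclei, against 4.37 to 235 CPM in oligodendrocyte nuclei. Without Pdgfrb it summed to between 116 and 201 CPM in astrocyte nuclei and to between 3.12 and 211 CPM in oligodendrocyte nuclei, and the groups overlapped. A count of 1 in 8 is near the 7.21% of all genes. With edgeR in 8 libraries 0 of 7 tested microglia markers, 0 of 10 endothelial markers, 0 of 5 blood markers and 0 of 9 mitochondrially encoded mRNAs passed, against 1, 1, 0 and 0 at an unadjusted p under 0.05. In 7 libraries 3 of 8 microglia markers were lower, and 1 endothelial marker was higher and 1 lower of 10. Of 22 pan-neuronal markers 1 was lower in 8 libraries and 5 in 7, the 1 being Slc17a7, the vesicular glutamate transporter, with 12.8, 15.6, 29.8 and 28.1 CPM in astrocyte nuclei, against 42.6, 30.03, 49.9 and 854 CPM in oligodendrocyte nuclei (log2 fold change −4.45 ± 1.24 (SE), adjusted p = 0.0319; −1.10 ± 0.38 (SE), adjusted p = 0.037 without oligodendrocyte 36). That call was lost without each of the 4 astrocyte libraries (adjusted p 0.0824 to 0.11). A count of 1 in 22 is near the 5.82% of all genes that were lower. Snap25, the synaptic gene that drives the transgene of the neuron line, did not pass in either fit.

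The difference between cell types was tested for a change with sex. With edgeR 0 of 11971 genes passed for the interaction of sex and cell type in 8 libraries (223 at an unadjusted p under 0.05), and 0 of 12663 without oligodendrocyte 36 (890 at an unadjusted p under 0.05). Sex and the number block of the libraries coincide and cannot be told apart. The 4 male libraries by themselves gave 1742 higher and 1418 lower genes. The 4 female libraries, which include astrocyte 30 and oligodendrocyte 36, gave 0 and 0 with edgeR (1000 of 11716 at an unadjusted p under 0.05).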

How the data were processed

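Per the labels' protocols, Trizol extraction of the nuclei was followed by DNase digestion and by amplification with NuGEN's Ovation V2 chemistry. The deposited values are whole-number read counts per gene, made by the authors with Trimmomatic, Bowtie2, STAR, bedtools and edgeR, per the submitters' processing notes. For build, annotation and strand setting the entry is "not given in the sources used here". The kit adds no molecular identifiers, so intervals and floors cover counting error only. IDs were given symbols from GENCODE M21 on GRCm38.

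The 4 astrocyte and 4 oligodendrocyte libraries were fitted alone with edgeR 4.0.16 in R 4.3.3: filterByExpr by group with a minimum count of 10, TMM scaling, quasi-likelihood F test, Benjamini-Hochberg adjustment over all tested genes. The SE is the log2 fold change divided by the square root of F. CPM divides a count by the library's total. The floor for a group at 0 is 3 counts over the group. The 8 libraries held 134357 to 3239445 counts. Each sample came from a different mouse, so p-values measure the spread between mice. Each pair of replicates differed by more than sampling noise (chi-square over degrees of freedom at least 2.84). On simulated data the fit in 8 libraries recovered 79.4% of genes changed by 4 on the log2 scale and 3.12% of those changed by 2, so a gene that did not pass in 8 libraries may still differ.

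The text names the drivers, GFP, Rpl10a and Snap25, both members of each of 13 family pairs, and in each list the 2 members with the smallest p-value in each direction. It also names the 8 genes with the largest change in each direction that passed in 8 and in 7 libraries, did not overlap between groups, reached a mean of 10 CPM in the higher group and had a full symbol. Other list members are named after their values were seen. The members, lists and pairs were chosen with earlier results of these data known. Alternatives covered leaving out each library, RLE and TMMwsp scaling, other count filters, sex as a covariate, each sex alone, all sorted libraries, DESeq2 1.42.0 and limma 3.58.1 voom with sample weights. Leaving out the 2 libraries with fewest genes detected, and RLE scaling or sex as a covariate in 7 libraries, were added after seeing the data. Some genes and the pairs that hold them are not reported here.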

Additional observations from a re-analysis of the deposited data

Results flagged for a closer look

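In groups of 4 libraries, 28 values lay far from the others of their group relative to the group's range, among 272 groups looked at. Chance flags about 1 in 20, but that rate does not hold for groups near 0 counts. Speer4c and Tex52 in astrocyte 6 and Nat8 in oligodendrocyte 34 were each the only library of their group with counts. Of the 28 values, 15 were in oligodendrocyte 36. In that library Itgad stood highest at 100.5 CPM, Speer4c at 99.2 CPM, Mboat1 at 789 CPM, S1pr5 at 389 CPM and Fa2h at 1630.5 CPM. Dll1 (39.3 CPM), Tgfb3 (83.0 CPM), Slc17a7 (854 CPM), Bcas1 (2215 CPM) and the summed oligodendrocyte precursor markers (2376 CPM) were also highest there. Rpl10a (0 CPM), Fads2 (0.624 CPM), Kcna1 (448 CPM), Adamts4 (303 CPM) and the number of genes detected (7674) were lowest there.

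In astrocyte 30, where 1 count is worth 7.44 CPM, Speer4a (7.44 CPM), Mag (14.9 CPM), Fa2h (29.8 CPM) and Myrf (22.3 CPM) were highest of their group and genes detected (11136) lowest. In astrocyte 32, Steap3 (177.5 CPM) and Otx2 (179 CPM) were highest and Ttpa (17.0 CPM) lowest. In astrocyte 6, Speer4c and Tex52 were highest, each at 0.426 CPM from 1 count. In oligodendrocyte 34, Nat8 (0.745 CPM), Gja1 (94.99 CPM) and the share of counts from mitochondrially encoded genes (0.339%) were highest.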

How the results depend on the processing

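Leaving out 1 library moved the number of genes higher in astrocyte nuclei between 575 (without astrocyte 32) and 2034 (without oligodendrocyte 36), and the number lower between 473 (without astrocyte 32) and 1556 (without oligodendrocyte 36), against 863 and 697 in 8 libraries. Males alone gave 1742 higher and 1418 lower, and females alone 0 and 0. DESeq2 gave 1599 higher and 914 lower, and limma voom with sample weights 2287 higher and 2005 lower. Alternatives chosen after seeing the data gave 1968 and 1474 without the 2 libraries with fewest genes detected, 1935 and 1663 with RLE scaling in 7 libraries, and 2076 and 1557 with sex as a covariate in 7 libraries. In presort nuclei 2 genes were lower with no filter. RLE scaling moved the median log2 fold change of all genes to 0.15, against 0.03 with TMM, and ended the calls of Psat1 and Thra. Of 123 named genes, females alone ended the call of 119, and leaving out 1 library ended between 0 and 11. Sex as a covariate in 8 libraries ended 5 calls. TMMwsp scaling, no filter, males alone and the fit of all 12 sorted libraries ended 1 each. Without oligodendrocyte 36 the difference in genes detected, astrocyte minus oligodendrocyte, turned to −1269.9 and that of summed blood markers to −2.44 CPM. The cause was not tested. No paired analysis was possible because the groups share no replicate numbers. Depth limits astrocyte 30 most: 3 counts there are 22.3 CPM, so low genes could not be resolved in it.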
